A study of Mus musculus with 7 samples.

Results

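DN3b γδ+ thymocytes, which have just passed γδ selection, were compared with DN3a thymocytes, the stage from which both γδ and αβ T cells arise. Single-cell transcriptomes were sorted from the pooled thymi of wild-type C57BL/6 mice of 6 to 8 weeks, depleted of CD4- and CD8-bearing thymocytes with magnetic beads. DN3a cells were gated as CD3-, TCRδ-, CD44low, CD25+ and CD71-, and DN3b γδ+ cells as TCRδ+, CD3+, CD24+, CD44low and CD25+. Before capture, 500 splenic B cells were added to each sorted population as an internal standard. The members were the barcodes of these 2 libraries with at least 1000 detected genes, at most 10% mitochondrial UMIs (unique molecular identifiers, 1 per captured transcript) and at most 1 UMI of the B cell genes *Cd79a*, *Cd79b* and *Ms4a1* together. By this rule 11663 DN3b γδ+ and 6259 DN3a barcodes were kept, that is 17922 of the 66446 barcodes that the same rule kept in all 7 libraries of the series. Named genes are also given in the other 3 wild-type libraries, and in 2 libraries of DN3 cells from Lat-/- mice that carry the TCRd-H2BEGFP reporter, a fluorescent protein expressed from the TCRδ gene, sorted as γδ− or as γδint for an intermediate level of the γδ TCR. The age of the Lat-/- mice is not given in the sources used here. There was 1 library per group, made from 1 pooled sample, so no test could be made. All intervals below are exact 95% intervals that cover counting error only, and a difference between the libraries, the sorts or the captures cannot be told apart from a difference between the cell populations.

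DN3 thymocytes cut and rejoin their *Tcrb*, *Tcrg* and *Tcrd* gene segments with the RAG1 and RAG2 recombinase, while Notch ligands on thymic epithelium keep them alive and committed to the T lineage. A cell that makes a functional TCRβ chain pairs it with the pre-TCRα chain (pTα, encoded by *Ptcra*) and is β-selected, whereas a cell that makes functional TCRγ and TCRδ chains displays a γδ TCR. Signals from the γδ TCR are known to act through ERK, EGR transcription factors and the inhibitor of DNA binding ID3, which blocks the E proteins that drive *Rag* and *Ptcra* transcription. The stage from DN3a to DN3b is also one at which resting thymocytes enlarge and divide.

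The kept barcodes held 194621578 UMIs in the DN3b γδ+ library and 50856437 in the DN3a library. The median barcode held 15990 UMIs and 3659 detected genes in DN3b γδ+, against 7387 UMIs and 2360 genes in DN3a. The median mitochondrial share was 2.83% in DN3b γδ+ and 6.90% in DN3a. The spiked B cells, 110 and 112 barcodes, held a like median of 3716 and 3723.5 UMIs, so the higher content of DN3b γδ+ barcodes was also seen relative to cells that were the same in both libraries. Levels are given as CPM, the UMIs of a gene scaled so that the kept barcodes of its library sum to 1000000, and a log2 ratio is that of DN3b γδ+ over DN3a CPM. Relative to the B cells of the same library, every log2 ratio was 1.11 higher. A gene with a log2 ratio between -1.11 and 0 was therefore lower in DN3b γδ+ by CPM and higher per barcode on the B cell scale. Free RNA differed between the libraries. Summed over 10 T cell marker genes, B cells showed 22.9% of the thymocyte level in the DN3b γδ+ library and 6.66% in the DN3a library. The 10 genes include *Cd2*, which the B cells transcribed above the level of the thymocytes, so both shares overstate free RNA. The B cell UMIs that set the B cell scale include free RNA, unequal between the libraries by these shares. The scale was not corrected for it. An estimate of free RNA was subtracted, namely 14.6% of the B cell CPM in the DN3b γδ+ library and 0% in the DN3a library. Values were not allowed below a floor of 3 counts. The B cell CPM include what B cells transcribe themselves, so genes of B cells were lowered in DN3b γδ+ only, whatever their free RNA. The subtraction gave 671 genes higher and 1808 lower. It turned the direction of 8 of 170 genes named here that were past 2-fold, which is said beside each of them. All 8 were higher in those B cells than in the thymocytes and ended at or near the floor, so their subtracted ratios are no measured levels. Only 16 barcode sequences were kept in both libraries. UMIs of *Xist* and of the Y-linked gene *Ddx3y* were found in both libraries, at 11.7 and 0.347 UMIs per DN3b γδ+ barcode and 10.3 and 0.330 per DN3a barcode.

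The label of each population was checked against its defining markers. Of the genes used for sorting, *Trdc*, the constant region of the TCRδ chain, stood at 1015 CPM in DN3b γδ+ and 315 CPM in DN3a. The reference also held a Trdc-GFP feature, which the paper added to *Trdc* and which is left out of the *Trdc* values here. *Il2ra*, which encodes CD25, stood at 30.4 CPM in DN3b γδ+ and 612 CPM in DN3a, although both gates were CD25+. *Tfrc*, which encodes CD71 and whose product was absent from the DN3a gate, stood at 72.3 and 31.4 CPM. *Trdc* and *Tfrc* follow the gates and are no findings, and *Il2ra* encodes a protein that both gates required. The DN3a gate excluded CD3 at the cell surface and the DN3b γδ+ gate required it there. The transcript *Cd3e* was lower in DN3b γδ+ (log2 ratio -0.79, and 0.32 on the B cell scale). *Cd24a*, whose product the DN3b γδ+ gate required, was lower too (log2 ratio -1.30, and -0.19 on the B cell scale). All but 3 DN3b γδ+ and 2 DN3a barcodes held a UMI of *Cd3d*, *Cd3e* or *Cd3g*. The mature coreceptor transcripts *Cd4*, *Cd8a* and *Cd8b1* were at 1.22 CPM or less in either library.

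Over the 7924 genes with at least 10 CPM in 1 of the 2 libraries, 841 genes (10.6%) were at least 2-fold higher in DN3b γδ+ and 1196 genes (15.1%) at least 2-fold lower. The median log2 ratio was -0.07. A gene that reached the minimum in 1 library only is higher in that library by this rule. The direction of such genes, also within the lists below, follows from the filter and is no evidence about a group. The shares of all genes were taken with the same minimum. Of the genes past 2-fold, 41.3% were higher in DN3b γδ+. With TMM scaling, a trimmed mean that moved all log2 ratios by 0.29, 1346 genes were higher and 802 lower (62.7% higher). On the B cell scale 4137 genes (52.2%) were higher and 296 (3.74%) lower. On that scale most listed groups shifted with all other genes, and the 5 Notch genes and 4 recombination genes that remained at least 2-fold lower are to be read against the 3.74%. Of these 4, *Lig4* lay at the limit (log2 ratio -1.004).

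Neurogranin (*Nrgn*), a calmodulin-binding protein, was the highest gene of the ranking, which was limited to genes that reached 50 CPM in either population and had 10 or more UMIs in both. It left out genes that the B cells of either library held at higher CPM than its thymocytes, among them *Rag1*, *Rag2*, *Notch3* and *Dtx1*, whose values are given with their groups. *Nrgn*, a protein-coding gene at chr9:37544492-37552904, minus strand, in GENCODE vM21 coordinates of GRCm38 (mm10), stood at 377 CPM in DN3b γδ+ and 0.649 CPM in DN3a, a log2 ratio of 9.18. In the same annotation *Etv5* lies at chr16:22381309-22439719, minus strand, *Cd5* at chr19:10717116-10739002, minus strand, *Id3* at chr4:136143497-136145755, plus strand, *Ptcra* at chr17:46755663-46763712, minus strand, and *Rag1* at chr2:101638282-101649501, minus strand. The antisense transcript *B630019A10Rik* followed with 81.7 and 0.629 CPM. The ETS factor *Etv5*, with 71.0 and 1.26 CPM, came just after *Ube2c*. The other 12 of the 15 highest genes were *Ube2c*, *Hmmr*, *Birc5*, *Plk1*, *Tuba8*, *Ccna2*, *Cenpf*, *Pclaf*, *Aurkb*, *Nusap1*, *Esco2* and *Cdca3*, most of which act in DNA replication or mitosis. Their log2 ratios ran from 4.98 to 5.91. In DN3a none of these 15 genes exceeded 26.3 CPM.

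At the other end of this ranking stood *H19*, an imprinted long non-coding RNA, with 0.730 CPM in DN3b γδ+ and 72.5 CPM in DN3a (log2 ratio -6.63). *Bst1*, a cyclic ADP-ribose hydrolase, followed with 1.68 and 100.2 CPM, and *Ptcra* with 7.36 and 412 CPM. The remaining lowest genes were *Rab44*, *Gm4632*, *Tctex1d1*, *Slc5a9*, *Il2ra*, *Dgkeos*, *Ctla4*, *Smim5*, *Gm5111*, *Dhrs3*, *Gbp8* and *Hdac4*, with log2 ratios from -5.30 to -3.81. *Ctla4*, best known as an inhibitory receptor of mature T cells, stood at 4.18 CPM in DN3b γδ+ and 68.3 CPM in DN3a. Whether reads of *Gm4632*, *Dgkeos* and *B630019A10Rik*, annotated as antisense transcripts, came from the opposite strand cannot be said, since the strand setting of the counting is not given in the sources used here.

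**Figure D1:**
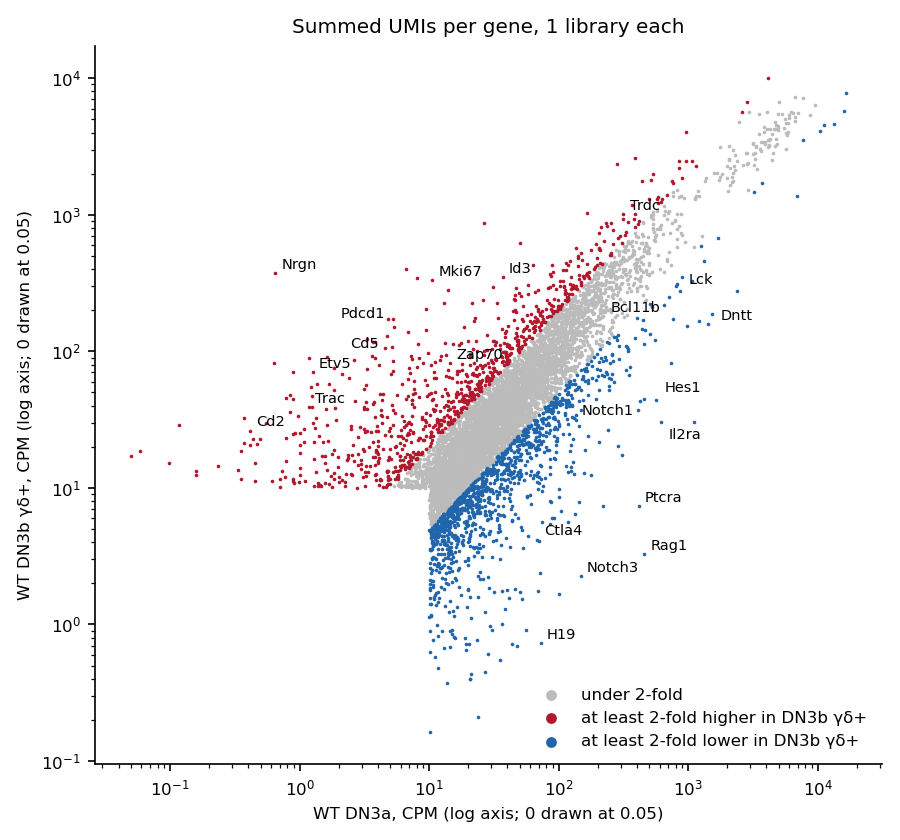
Each point is 1 of the 7924 genes with at least 10 CPM in 1 library, by its CPM in WT DN3a (x axis, log) and WT DN3b γδ+ (y axis, log). Red points were at least 2-fold higher in DN3b γδ+ and blue points at least 2-fold lower, with *Nrgn*, *Etv5* and *Cd5* far above the diagonal and *Rag1*, *Ptcra* and *Notch3* far below it.

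The TCR chains and pTα moved in different directions. Of the 8 genes, all past the 10 CPM minimum, 2 were at least 2-fold higher and 1 at least 2-fold lower, against 10.6% and 15.1% of all genes. The 2 higher genes were the sort gene *Trdc* and *Trac*, the constant region of the TCRα chain, with 39.3 CPM in DN3b γδ+ and 1.18 CPM in DN3a (33.3-fold, log2 ratio 5.06, interval 4.69 to 5.45). The lower gene was *Ptcra*, 56.0-fold lower (log2 ratio -5.81, interval -5.89 to -5.73). *Ptcra* was the only gene of the list past 2-fold in this direction, and 85.3% of unthinned DN3a barcodes held a UMI of it against 6.35% of DN3b γδ+ barcodes.

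The TCRγ constant genes did not follow *Trdc*. *Tcrg-C4* stood at 313 CPM in DN3b γδ+ and 300.3 CPM in DN3a. *Tcrg-C1* had 299 and 472 CPM and *Tcrg-C2* 473 and 690 CPM, log2 ratios of -0.66 and -0.55 that turn positive on the B cell scale. *Tcrg-C1* and *Tcrg-C2* are near-identical copies, so the split of reads between them is uncertain. Transcripts of the TCRβ constant regions were present in both populations. *Trbc1* stood at 1847 CPM in DN3b γδ+ and 1378 CPM in DN3a, and *Trbc2* at 2540.3 and 2041 CPM, with the same reservation on the split between copies. Of 13 variable segments of the γ and δ loci, 3 passed the minimum, and *Tcrg-V1* was higher (28.6 against 9.24 CPM) while *Tcrg-V4* was lower (12.9 against 30.4 CPM, a log2 ratio of -1.23).

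The CD3 chains, which carry the signal of every TCR into the cell, took a smaller share of the transcriptome in DN3b γδ+. The gates, CD3- for DN3a and CD3+ for DN3b γδ+, read protein at the cell surface, which transcript shares do not measure. Of the 4 genes 2 were at least 2-fold lower and none at least 2-fold higher, against 15.1% and 10.6% of all genes. *Cd3g* stood at 1458 CPM in DN3b γδ+ and 3189 CPM in DN3a, and *Cd3d* at 676 and 1701 CPM. On the B cell scale *Cd3g* was at a log2 ratio of -0.02 and *Cd3d* at -0.22, so that neither was 2-fold lower per barcode. *Cd3e* (0.32) and *Cd247* (1.46) were above 0 on that scale. *Cd247*, the CD3ζ chain, was the exception in direction, with 182 CPM in DN3b γδ+ and 143 CPM in DN3a.

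Among 17 proximal signalling molecules 16 passed the minimum, of which 5 were at least 2-fold higher and 4 at least 2-fold lower, against 10.6% and 15.1% of all genes (median log2 ratio -0.12). None of the 16 was 2-fold lower on the B cell scale. Kinases of the same family differed in opposite directions. *Zap70*, the Syk family kinase of mature T cells, stood at 81.7 CPM in DN3b γδ+ and 14.5 CPM in DN3a (log2 ratio 2.50, interval 2.39 to 2.61). *Syk* itself stood at 5.69 and 19.3 CPM (log2 ratio -1.76, interval -1.88 to -1.63). Among Src family kinases *Lck* stood at 278 and 867 CPM, a log2 ratio of -1.64 that shrank to -0.53 on the B cell scale. *Blk* and *Fyn* went the other way, with 46.9 and 60.6 CPM in DN3b γδ+ and 9.63 and 24.1 CPM in DN3a. The B cells also transcribed *Blk*, at 122 CPM in either library.

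Adaptors and exchange factors were split as well. *Rasgrp1*, which loads RAS with GTP downstream of diacylglycerol, stood at 194 CPM in DN3b γδ+ and 46.4 CPM in DN3a (4.18-fold). *Grb2*, which couples LAT to SOS, stood at 216 and 101 CPM (log2 ratio 1.10, and 0.82, under 2-fold, with free RNA subtracted). *Grap2*, which encodes the related adaptor GADS, was lower with 42.3 against 99.9 CPM, and so was *Themis* with 66.3 against 200.03 CPM. *Lat*, *Lcp2*, *Txk*, *Plcg1*, *Vav1* and *Prkcq* were within 2-fold. *Lat* stood at 383 and 643 CPM (log2 ratio -0.75, positive on the B cell scale).

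Inhibitory receptors gave some of the largest differences outside the cell cycle. Of 19 listed negative regulators of TCR signalling 16 passed the minimum, of which 6 were at least 2-fold higher and 6 at least 2-fold lower, against 10.6% and 15.1% of all genes. *Cd5*, a receptor that dampens TCR signals and whose level is known to track their strength, stood at 130 CPM in DN3b γδ+ and 4.76 CPM in DN3a (27.2-fold, log2 ratio 4.77, interval 4.59 to 4.96). *Pdcd1*, which encodes PD-1, stood at 151 and 5.39 CPM (28.1-fold, log2 ratio 4.81, interval 4.64 to 4.99). *Cd160* stood at 43.1 and 2.65 CPM and *Cd6*, a neighbour and relative of *Cd5*, at 69.5 and 7.14 CPM. *Cd5*, *Pdcd1*, *Cd160* and *Cd6* passed the minimum through DN3b γδ+ only. The phosphatase gene *Ptpn6* (SHP-1) and the adaptor gene *Sla* made up the 6, each with a log2 ratio under 1.2. *Btla*, below the minimum, stood at 8.15 and 0.374 CPM (log2 ratio -4.60 with free RNA subtracted).

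The 6 lower negative regulators were *Ctla4*, the cytokine signalling suppressors *Socs1* (40.3 and 127 CPM) and *Socs3* (7.59 and 60.5 CPM), and *Sla2*, *Ubash3a* and *Cblb*. The list thus held genes at both ends of the range. On the B cell scale only *Ctla4* and *Socs3* remained at least 2-fold lower, and both passed the minimum through DN3a only.

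Genes induced within minutes to hours of TCR engagement were also divided. Of 16 listed genes 13 passed the minimum, 5 at least 2-fold higher and 4 at least 2-fold lower, against 10.6% and 15.1% of all genes, with a median log2 ratio of 0.89. The 5 higher genes were *Nab2*, *Egr3*, *Tnfrsf9*, *Nr4a1* and *Egr1*. At least *Nab2* and *Egr3* passed through DN3b γδ+ only, so their direction was set by the filter, whereas *Nr4a1* and *Egr1* passed in both libraries. *Nr4a1*, the orphan receptor NUR77 used as a reporter of TCR signalling, stood at 85.7 CPM in DN3b γδ+ and 12.0 CPM in DN3a (log2 ratio 2.83, interval 2.72 to 2.95). *Egr1* stood at 59.5 and 24.6 CPM, *Egr3* at 12.3 and 1.003 CPM, and *Nab2*, a corepressor of EGR proteins, at 39.3 and 3.11 CPM. *Egr2*, below the minimum, stood at 7.14 and 0.846 CPM.

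The 4 lower genes were 3 AP-1 subunits and an inhibitor of NF-κB signalling. *Jun* stood at 142 CPM in DN3b γδ+ and 463 CPM in DN3a, *Junb* at 328 and 1064 CPM, *Fosb* at 19.1 and 83.8 CPM and *Tnfaip3* at 25.7 and 79.5 CPM. On the B cell scale all 4 kept a log2 ratio below 0, and of the 4 only *Fosb* was still at least 2-fold lower. The B cells of the same libraries held *Fosb* at 64.4 and 49.4 CPM. Other genes of these kinds were within 2-fold. *Fos* stood at 111 and 172 CPM (log2 ratio -0.63, positive on the B cell scale), and *Nfkbia*, another NF-κB inhibitor, at 57.0 and 28.9 CPM (log2 ratio 0.98, and -0.87 with free RNA subtracted). *Cd69* stood at 145 and 77.8 CPM.

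Of 10 ERK targets that feed back on the pathway 7 passed the minimum, of which 3 were at least 2-fold higher and none at least 2-fold lower, against 10.6% and 15.1% of all genes. All 3 passed through DN3b γδ+ only, so their direction was set by the filter. *Etv5* was 56.4-fold higher (log2 ratio 5.82, interval 5.46 to 6.19), *Spry2* stood at 15.1 and 4.01 CPM, and the ERK phosphatase gene *Dusp6* at 13.2 and 5.41 CPM. *Etv4*, the close relative of *Etv5*, was below the minimum, with 1.88 CPM in DN3b γδ+ and 0.0590 CPM from 3 UMIs in DN3a (log2 ratio 4.99, interval 3.44 to 7.28). *Dusp5* stood at 66.7 and 75.6 CPM (log2 ratio -0.18, positive on the B cell scale).

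Of the Id proteins, which bind E proteins and keep them off DNA, *Id3* stood at 350.2 CPM in DN3b γδ+ and 36.9 CPM in DN3a (9.48-fold, log2 ratio 3.25, interval 3.18 to 3.31). *Id2* stood at 29.9 and 47.2 CPM (log2 ratio -0.66, positive on the B cell scale). Of the E proteins, *Tcf12* (HEB) stood at 95.2 and 259 CPM and *Tcf4* (E2-2) at 40.3 and 93.3 CPM, while *Tcf3* (E2A) stood at 86.0 and 88.5 CPM. In the list of 6 E and Id proteins, 5 passed the minimum, of which 1 was at least 2-fold higher and 2 at least 2-fold lower, against 10.6% and 15.1% of all genes. On the B cell scale 2 of the 5 were at least 2-fold higher and none at least 2-fold lower, against 52.2% and 3.74% of all genes.

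All 9 listed genes of the recombination machinery passed the minimum, of which 6 were at least 2-fold lower in DN3b γδ+ and none at least 2-fold higher, against 15.1% and 10.6% of all genes, with a median log2 ratio of -2.04 against -0.07 over all genes. *Rag1* stood at 3.28 CPM in DN3b γδ+ and 456 CPM in DN3a, 139-fold lower (log2 ratio -7.12, interval -7.23 to -7.00). *Rag2* stood at 0.904 and 55.9 CPM. *Dntt*, the terminal transferase that adds bases at the joins, stood at 189 and 1528 CPM. Of the end-joining factors, *Xrcc6* (Ku70), *Lig4* and *Dclre1c* (Artemis) were at least 2-fold lower, with log2 ratios between -2.11 and -1.92. *Xrcc5* (Ku80), *Prkdc* and *Xrcc4* were within 2-fold, and *Xrcc5* was slightly higher at 39.4 against 27.5 CPM. On the B cell scale *Rag1*, *Rag2* and *Dntt* were still at least 2-fold lower, and *Lig4* lay at the limit (log2 ratio -1.004).

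Notch receptors and targets were lower as a group. Of 12 genes 8 passed the minimum, of which 6 were at least 2-fold lower, against 15.1% of all genes, and none was higher (median log2 ratio -3.50). *Notch3* stood at 2.28 CPM in DN3b γδ+ and 148 CPM in DN3a (64.9-fold lower, log2 ratio -6.02, interval -6.16 to -5.88). *Notch1*, the receptor that commits thymocytes to the T lineage, stood at 45.1 and 454 CPM (10.1-fold lower). The target *Hes1* stood at 44.1 and 562 CPM and *Dtx1* at 4.10 and 70.5 CPM. *Il2ra*, also a Notch target, and *Lfng*, a glycosyltransferase that modifies Notch, made up the 6. *Notch2* (9.91 and 13.7 CPM) and *Rbpj*, the DNA-binding partner of Notch (30.8 and 48.7 CPM), were within 2-fold and turn positive on the B cell scale.

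EGR factors and E proteins bind known DNA sequences, and the promoters of the genes tested were therefore searched for the EGR sequences GCGTGGGCG and GCGGGGGCG and for the E-box CAGGTG, on both strands. Neither EGR sequence contains the E-box. The RefSeq promoter window ran from 250 bases before to 50 bases after the start and was found for 6355 of the 7924 genes. An EGR sequence was present in 6.72% of all these promoters, in 5.89% of those at least 2-fold higher and in 6.41% of those at least 2-fold lower. The E-box was present in 16.1% of all, 15.4% of the higher and 20.7% of the lower group. Neither group thus held more EGR sequences than all promoters together. A match says that the letters are present and not that a factor binds.

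Promoters are shown for 4 genes because they carry such a match in genes from both ends of the range, the E-box in *Cd5* and *Rag1* and the EGR sequence in *Nr4a1* and *Notch3*. Each is the RefSeq sequence of build GRCm38.p6, written 5′ to 3′ on the strand of the gene, with the match in capitals.
Cd5 (chr19:10738925-10739224, minus strand): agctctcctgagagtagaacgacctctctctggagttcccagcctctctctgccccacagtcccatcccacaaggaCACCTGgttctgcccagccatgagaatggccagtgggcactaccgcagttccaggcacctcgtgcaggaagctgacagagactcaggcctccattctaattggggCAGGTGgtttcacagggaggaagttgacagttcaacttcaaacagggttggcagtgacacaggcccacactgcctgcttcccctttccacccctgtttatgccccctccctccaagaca
Rag1 (chr2:101649483-101649782, minus strand): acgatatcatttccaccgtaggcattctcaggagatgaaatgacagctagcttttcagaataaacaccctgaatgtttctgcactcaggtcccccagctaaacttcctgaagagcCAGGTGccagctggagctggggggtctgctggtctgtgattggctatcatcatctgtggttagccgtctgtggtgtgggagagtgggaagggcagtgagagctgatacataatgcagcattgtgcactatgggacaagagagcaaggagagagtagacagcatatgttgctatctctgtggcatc
Nr4a1 (chr15:101266596-101266895, plus strand): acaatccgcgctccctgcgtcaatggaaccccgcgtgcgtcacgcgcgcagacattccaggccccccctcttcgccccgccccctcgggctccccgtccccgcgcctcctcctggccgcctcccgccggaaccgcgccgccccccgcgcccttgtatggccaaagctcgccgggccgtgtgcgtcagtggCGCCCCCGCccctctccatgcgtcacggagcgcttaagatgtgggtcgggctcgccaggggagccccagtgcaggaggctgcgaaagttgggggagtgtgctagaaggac
Notch3 (chr17:32166841-32167140, minus strand): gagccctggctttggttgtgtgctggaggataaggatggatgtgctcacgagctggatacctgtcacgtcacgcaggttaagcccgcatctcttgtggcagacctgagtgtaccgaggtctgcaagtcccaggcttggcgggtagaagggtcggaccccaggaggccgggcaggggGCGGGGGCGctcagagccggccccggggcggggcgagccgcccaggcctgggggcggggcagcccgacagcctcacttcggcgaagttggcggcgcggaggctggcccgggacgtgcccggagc
The matches begin 174 and 69 bases before the start in *Cd5*, 135 bases before it in *Rag1*, 60 bases before it in *Nr4a1* and 74 bases before it in *Notch3*.

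Of 18 transcription factors that set T cell identity 16 passed the minimum, 5 at least 2-fold higher and 4 at least 2-fold lower, against 10.6% and 15.1% of all genes (median log2 ratio -0.12). *Bcl11b*, the factor of T lineage commitment, stood at 173 CPM in DN3b γδ+ and 768 CPM in DN3a (4.43-fold lower), *Runx1* at 66.7 and 349 CPM, *Satb1* at 63.2 and 255 CPM and *Gfi1* at 13.5 and 49.9 CPM. On the B cell scale *Bcl11b* and *Runx1* remained past 2-fold. In contrast, *Lef1*, a partner of β-catenin, stood at 562 and 205 CPM (2.74-fold higher), *Tox* at 167 and 59.4 CPM and *Tox2* at 51.8 and 1.85 CPM. *Runx3* and *Ikzf3* were the other higher factors, *Ikzf3* turning to a log2 ratio of -7.22 with free RNA subtracted. *Tcf7* stood at 378 and 447 CPM (log2 ratio -0.24, positive on the B cell scale) and *Gata3* at 182 and 99.8 CPM, both within 2-fold. Of 11 genes of earlier progenitor stages 5 passed the minimum, 2 at least 2-fold higher and 2 at least 2-fold lower, against 10.6% and 15.1% of all genes. The higher genes were *Cpa3*, which passed through DN3b γδ+ only, and *Mef2c*, with a log2 ratio of -8.91 once free RNA was subtracted. The lower genes were *Erg* (0.899 and 12.6 CPM), which passed through DN3a only, and *Bcl11a* (log2 ratio -1.45, and -0.34 on the B cell scale). *Lef1os1*, an antisense transcript overlapping *Lef1*, was also higher, and reads of the pair may not be told apart.

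Genes of later γδ T cell function were partly present. Of 20 listed genes only 7 passed the minimum, of which 4 were at least 2-fold higher and none at least 2-fold lower, against 10.6% and 15.1% of all genes. *Sox13*, a factor of the γδ lineage, stood at 70.6 CPM in DN3b γδ+ and 10.9 CPM in DN3a (6.48-fold). *Gzma* stood at 639 and 224 CPM, *Cd163l1* at 14.2 and 6.00 CPM, and the chemokine gene *Xcl1* at 14.5 and 0.236 CPM. *Cd163l1* and *Xcl1* passed through DN3b γδ+ only, so their direction was set by the filter, whereas *Sox13* and *Gzma* passed in both libraries. Several genes below the minimum were close to absent in DN3a. *Il2rb* stood at 8.26 and 0.0197 CPM, the latter from 1 UMI (log2 ratio 8.71, interval 6.23 to 14.0). *Il1r1* stood at 7.38 and 0.0983 CPM, and *Zbtb16*, the factor of innate-like T cells, at 2.06 and 0.0197 CPM. *Tbx21*, the T-bet factor of interferon γ producers, was near 0 in both, at 0.170 and 0.0393 CPM (log2 ratio -1.94 with free RNA subtracted), and so was *Il17a*, at 0.0514 and 0 CPM. *Ifng* stood at 8.53 and 5.76 CPM.

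Genes that the study chose as a γδ signature by comparing DN3b γδ+ with DN3b γδ− cells were also measured, namely 14 that its text names as examples and not its whole list. Because they were picked on this DN3b γδ+ library, their direction is not independent evidence. All 14 passed the minimum, 12 at least 2-fold higher than in DN3a and 1 at least 2-fold lower, against 10.6% and 15.1% of all genes. Of the 12, *Cd52* and *Klf2* fell to the floor of 3 counts in DN3b γδ+ with free RNA subtracted (log2 ratios of -12.04 and -8.64). Both values are set by that floor. The lower gene was *Clec2d*, with 45.2 against 97.1 CPM (log2 ratio -1.10, which is near 0 on the B cell scale). *Sesn3* was within 2-fold at 48.3 and 35.9 CPM. The mast cell protease gene *Cpa3* stood at 87.9 and 7.41 CPM.

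Of 13 adhesion and costimulatory genes 11 passed the minimum, 7 at least 2-fold higher and 2 at least 2-fold lower, against 10.6% and 15.1% of all genes (median log2 ratio 1.83). *Cd28*, the main costimulatory receptor of T cells, stood at 258 CPM in DN3b γδ+ and 46.1 CPM in DN3a (5.59-fold). *Cd2* stood at 26.3 and 0.413 CPM (log2 ratio 5.99, and 2.81 with free RNA subtracted). *Itgb2*, the β chain of LFA-1, stood at 41.5 and 3.68 CPM, and *Tes*, a focal adhesion protein, at 77.3 and 8.06 CPM. *Cd53*, *Cd9* and *Cd52* were the other higher genes, but with free RNA subtracted *Cd9* was within 2-fold (log2 ratio 0.30) and *Cd52* turned to -12.04. The lower genes were *Itga4* (71.5 and 159 CPM) and the sort gene *Cd24a*. The B cells transcribed *Cd2* at 161 and 178 CPM, above the level of the thymocytes.

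Genes of quiescence and homing gave a median log2 ratio of -0.98 over 17 of 18 genes, with 2 at least 2-fold higher and 8 at least 2-fold lower, against 10.6% and 15.1% of all genes. With scaling to the B cells 6 were at least 2-fold higher and 1 at least 2-fold lower, against 52.2% and 3.74% of all genes on that scale. *Klf2*, a factor of quiescence and thymic exit, stood at 58.0 CPM in DN3b γδ+ and 6.15 CPM in DN3a, and *Ccr7*, a chemokine receptor, at 20.9 and 0.472 CPM. Both are abundant in the B cells, *Klf2* at 747 and 801 CPM, and *Klf2* turned to a log2 ratio of -8.64 with free RNA subtracted. The lower genes were *Btg1* (104.02 and 345 CPM), *Btg2* (70.6 and 231 CPM), *Txnip* (34.1 and 136 CPM), *Pik3ip1* (23.9 and 168 CPM), *Foxo3*, *Foxp1*, *Klf6* and *Cdkn1b* (43.9 and 112 CPM). *Foxp1* lies at a log2 ratio of -1.03, which is near 0 on the B cell scale. Of 12 cytokine receptors 9 passed the minimum, with none at least 2-fold higher and 4 at least 2-fold lower (15.1% of all genes), *Il7r* (36.4 and 89.6 CPM), *Ifngr1* (85.1 and 262 CPM), *Tgfbr1* and *Tnfrsf18*. On the B cell scale 4 of the 9 were at least 2-fold higher and none at least 2-fold lower, against 52.2% and 3.74% of all genes.

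Cell cycle transcripts were higher in DN3b γδ+ across nearly all listed genes. The DN3a gate excluded cells with CD71, which the paper links to proliferation, whereas the DN3b γδ+ gate given above set no CD71 limit. The part of the gates in this contrast, and in the barcode counts below, was not tested. Of 43 S phase genes, all past the minimum, 36 were at least 2-fold higher in DN3b γδ+ and none at least 2-fold lower, against 10.6% and 15.1% of all genes (median log2 ratio 1.81). Of 53 G2 and mitosis genes 52 passed the minimum, with 46 at least 2-fold higher and none at least 2-fold lower, to be read against the same shares (median log2 ratio 3.4). *Mki67*, the Ki-67 antigen, stood at 333 CPM in DN3b γδ+ and 10.6 CPM in DN3a (31.5-fold). *Rrm2*, a subunit of ribonucleotide reductase, stood at 284 and 14.0 CPM, and *Top2a* at 623 and 49.8 CPM. The replicative helicase genes differed less, *Mcm2* standing at 125 and 62.0 CPM. *Uhrf1*, a partner of DNA methyltransferase, was the only S phase gene below 0, with 157 and 204 CPM (log2 ratio -0.38, positive on the B cell scale).

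Barcodes were then counted one by one after thinning each to 4000 UMIs, which left out 857 DN3b γδ+ and 150 DN3a barcodes of lower depth. The median barcode held 61 UMIs of the 96 cell cycle genes in DN3b γδ+ and 14 in DN3a. A limit of 36 UMIs, the 95th percentile of DN3a, was exceeded by 9129 of 10806 DN3b γδ+ barcodes (84.5%, interval 83.8 to 85.2) and by 289 of 6109 DN3a barcodes (4.73%, interval 4.21 to 5.29, a share that the limit fixes near 5%). Of the B cells, 1 of 44 in the DN3b γδ+ library and 0 of 39 in the DN3a library exceeded it. The class is a range along a score rather than a cell type, and 2171 DN3b γδ+ barcodes (20.1%) lay within 9 UMIs of the limit. Among barcodes above the limit, 4009 of 9129 (43.9%) held more S phase than G2 and mitosis UMIs in DN3b γδ+, against 244 of 289 (84.4%) in DN3a. Barcodes above the limit are called high-cycle below, and the others low-cycle, which does not mean that the latter lacked cycle transcripts.

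**Figure D2:**
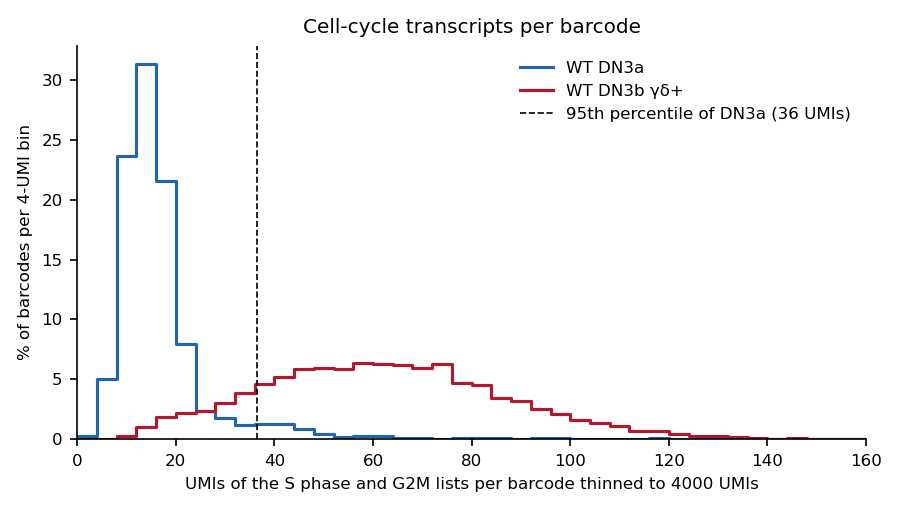
Histogram of the UMIs of the 96 S phase and G2M genes per barcode (x axis), each barcode thinned to 4000 UMIs, as the percentage of barcodes per 4-UMI bin (y axis). DN3a barcodes gather around their median of 14 UMIs and DN3b γδ+ barcodes spread around 61, mostly right of the dashed limit of 36 UMIs.

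Regulators of the G1 phase and of the Myc network went in both directions. Of 19 genes 17 passed the minimum, 6 at least 2-fold higher and 6 at least 2-fold lower, against 10.6% and 15.1% of all genes. *Ccne1*, cyclin E1, stood at 32.5 CPM in DN3b γδ+ and 1.34 CPM in DN3a, *E2f1* at 49.2 and 10.3 CPM and *Cdk2* at 40.1 and 11.3 CPM. The inhibitor gene *Cdkn2c* (p18) was higher too, with 60.1 against 20.3 CPM (log2 ratio 1.57, and 0.32 among low-cycle barcodes). So were *Rbl1* and *E2f2*, the latter with a log2 ratio below 0 among low-cycle barcodes. In contrast, the inhibitor gene *Cdkn1a* (p21) stood at 7.94 and 87.7 CPM (log2 ratio -3.47), and the MYC antagonist *Mxd4* at 12.6 and 131 CPM. *Myc* itself was lower, with 30.8 against 98.1 CPM (log2 ratio -1.67, and -0.56 on the B cell scale), and so was *Cdk6* with 349 against 899 CPM. The Myc antagonists *Mxd1* and *Mxi1* completed the lower genes. Among low-cycle barcodes 3 of 17 genes of this list were at least 2-fold higher and 5 at least 2-fold lower, against 7.86% and 11.3% of all genes.

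Of 13 glycolysis genes 12 could be measured, since 2 identifiers share the symbol *Aldoa*, and 7 of the 12 were at least 2-fold higher and none at least 2-fold lower, against 10.6% and 15.1% of all genes (median log2 ratio 1.08). *Ldha*, lactate dehydrogenase, stood at 821 CPM in DN3b γδ+ and 234 CPM in DN3a (3.50-fold), *Pgam1* at 355 and 87.1 CPM and *Pfkp* at 33.7 and 7.29 CPM. Of 16 ribosome biogenesis genes none was past 2-fold in either direction, against 10.6% higher and 15.1% lower of all genes, 13 had a log2 ratio above 0, and the median was 0.55. Relative to the B cells 13 were at least 2-fold higher, against 52.2% of all genes (median 1.66). *Npm1* stood at 3149.9 and 1764 CPM, and *Ncl* at 1529 and 811 CPM. Of 10 nutrient transport genes 8 passed the minimum, and 1 of these, the sort gene *Tfrc*, was at least 2-fold higher (10.6% of all genes).

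Of 17 sterol and fatty acid genes 16 passed the minimum, none was at least 2-fold higher and 3 were at least 2-fold lower, against 15.1% of all genes (median log2 ratio -0.21, positive on the B cell scale). Their share of lower genes was near that of all genes. *Mvd*, an enzyme of the mevalonate pathway, stood at 8.70 CPM in DN3b γδ+ and 17.9 CPM in DN3a (log2 ratio -1.04, near 0 on the B cell scale), and *Fasn*, fatty acid synthase, at 42.8 and 34.3 CPM.

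Of 13 BCL2 family genes 8 passed the minimum, of which 2 were at least 2-fold lower, against 15.1% of all genes, and none at least 2-fold higher. Both were pro-apoptotic, and neither was 2-fold lower on the B cell scale: *Bcl2l11* (BIM) with 10.1 CPM in DN3b γδ+ and 39.5 CPM in DN3a, and *Bbc3* (PUMA) with 2.52 and 10.5 CPM. The anti-apoptotic *Bcl2* stood at 261 and 165 CPM, and *Mcl1* at 171 and 259 CPM (log2 ratio -0.60, positive on the B cell scale). *Bcl2a1b* and *Bcl2a1d*, near-identical copies below the minimum, stood at 2.57 and 2.85 CPM in DN3b γδ+ and at 0.177 CPM each in DN3a. With free RNA subtracted *Bcl2a1b* turned to a log2 ratio of -3.52.

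Low-cycle barcodes of the 2 libraries were also compared with each other. Over 7824 genes with at least 10 CPM, 615 (7.86%) were at least 2-fold higher in DN3b γδ+ and 888 (11.3%) at least 2-fold lower. Of the 15 highest genes 5 remained among the 15 highest, and of the 15 lowest 12 remained among the 15 lowest. The highest genes of the low-cycle comparison, under the same ranking limits, were *Nrgn*, *B630019A10Rik*, *Etv5*, *Pdcd1*, *Ube2c*, *Cd5*, *Mpp4*, *Pclaf*, *Cd6*, *Cpa3*, *Rrm2*, *Lef1os1*, *Lig1*, *Zap70* and *Prim1*. *Hmmr* (log2 ratio 6.43), *Birc5* (5.48), *Ccna2* (5.14) and *Esco2* (4.97) were left out by the ranking limits, although above *Lig1* (2.97). So were *Cdca3* (4.27), *Aurkb* (3.88) and *Cenpf* (3.01), whose ratios were smaller than over all barcodes. *Gm12503*, *Cdkn1a* and *Notch1* joined the lowest of the ranking, which again left out *Rag1*, *Rag2* and *Notch3*. The low-cycle barcodes still differed in cycle transcripts. Of 41 S phase genes 31 were at least 2-fold higher and 1 at least 2-fold lower (median log2 ratio 1.5), and of 34 G2 and mitosis genes 20 were higher and none lower (median 1.42), against 7.86% higher and 11.3% lower among all 7824 genes of this comparison. Whether the other differences depended on division can therefore not be told from this comparison.

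Outside the cell cycle, some differences were of similar size in the low-cycle barcodes, others were smaller and others larger. *Nrgn* stood at 272 CPM in low-cycle DN3b γδ+ and 0.368 CPM in low-cycle DN3a barcodes (log2 ratio 9.53, interval 8.85 to 10.3). *Cd5* stood at 147 and 4.05 CPM (log2 ratio 5.19), *Pdcd1* at 149.9 and 3.88 CPM (5.27) and *Id3* at 323 and 32.95 CPM (3.29). The recombination and Notch genes came closer together, *Rag1* standing at 18.96 and 488 CPM (log2 ratio -4.69, interval -4.84 to -4.53) and *Ptcra* at 27.2 and 434 CPM (-3.99). At least 3 UMIs of *Rag1*, *Rag2*, *Ptcra* and *Notch3* together were held by 94 of 1677 thinned low-cycle DN3b γδ+ barcodes (5.6%) and by 20 of 9129 high-cycle ones (0.219%), and the part of the 94 in these levels was not tested. In these barcodes 6 of 9 recombination genes and 6 of 8 Notch genes were at least 2-fold lower, against 11.3% of all genes. No CD3 gene was past 2-fold in the low-cycle comparison. Of 9 cytokine receptors 1 was at least 2-fold higher and 2 at least 2-fold lower there, against 7.86% and 11.3% of all genes, with *Il7r* at a log2 ratio of -0.20. Of 9 γδ effector genes that passed the minimum here 8 were at least 2-fold higher, against 7.86% of all genes, among them *Maf* (log2 ratio 1.99), *Xcl1* (7.11) and *Ccl4* (2.0). Those of the 9 that reached the minimum only in low-cycle DN3b γδ+ barcodes could only be higher. The count is therefore no evidence about the group. Over all barcodes *Maf* (0.60) and *Ccl4* (0.15) were within 2-fold, and *Ikzf3* went from 2.81 over all to 3.84 in low-cycle barcodes.

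**Figure D3:**
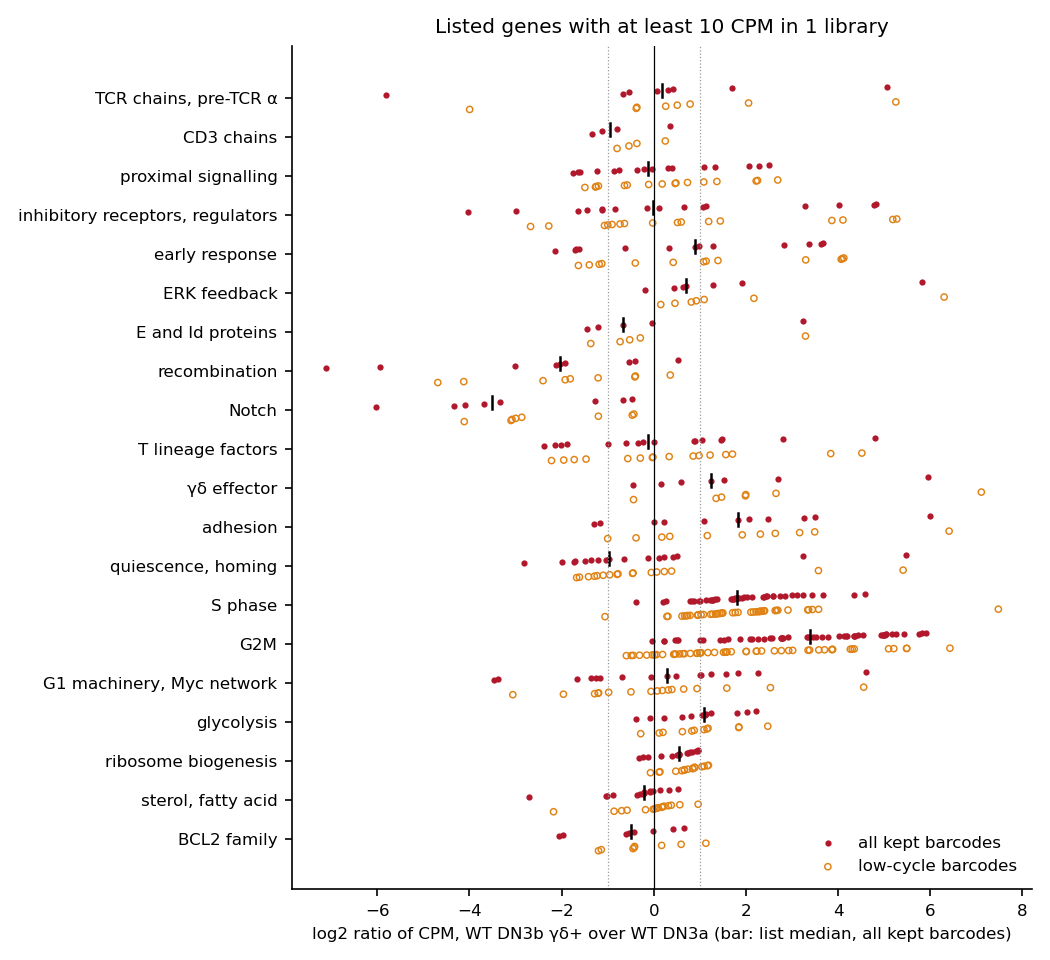
Log2 ratio of CPM in WT DN3b γδ+ over WT DN3a (x axis) for each listed gene with at least 10 CPM in 1 library, by group (y axis), over all kept barcodes (filled) and low-cycle barcodes (open). The black bars are the group medians over all kept barcodes, the lowest being Notch at -3.50 and the highest G2M at 3.4, and the dotted lines mark 2-fold.

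The share of barcodes with a UMI, at 4000 UMIs each, shows how these levels were spread over cells. *Rag1* was detected in 1.43% of DN3b γδ+ barcodes (interval 1.21 to 1.67) and in 70.0% of DN3a barcodes (68.8 to 71.1). In DN3b γδ+ the share was 0.548% of high-cycle and 6.20% of low-cycle barcodes. *Ptcra* was detected in 2.79% and 72.9%, and *Notch3* in 1.34% and 43.3%. Among the 44 thinned B cells of the DN3b γδ+ library *Ptcra* was detected in 2.27%. *Hes1* was detected in 13.7% of DN3b γδ+ barcodes and 11.4% of the B cells of that library. The part of free RNA in these low shares was not tested.

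In the other direction, *Id3* was detected in 65.6% of DN3b γδ+ and 9.99% of DN3a barcodes, *Nrgn* in 43.3% and 0.18%, *Pdcd1* in 42.7% and 1.49%, *Cd5* in 38.5% and 1.56% and *Etv5* in 23.0% and 0.295%. Without thinning the shares were 89.0% and 16.3% for *Id3*, 66.5% and 0.511% for *Nrgn* and 73.3% and 2.88% for *Cd5*. B cells of the DN3b γδ+ library held a UMI of *Id3* in 38.6% of barcodes and of *Nrgn* in 25%, against 41.0% and 0% in the DN3a library. They held one of *Cd5* and *Pdcd1* in 6.82% each. All these shares were below those of the DN3b γδ+ thymocytes, with 44 and 39 thinned B cells behind them. *Zap70* was detected in 28.1% of DN3b γδ+ and 4.32% of DN3a barcodes, and its shares in high-cycle and low-cycle DN3b γδ+ barcodes, 27.9% and 29.2%, were alike.

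**Figure D4:**
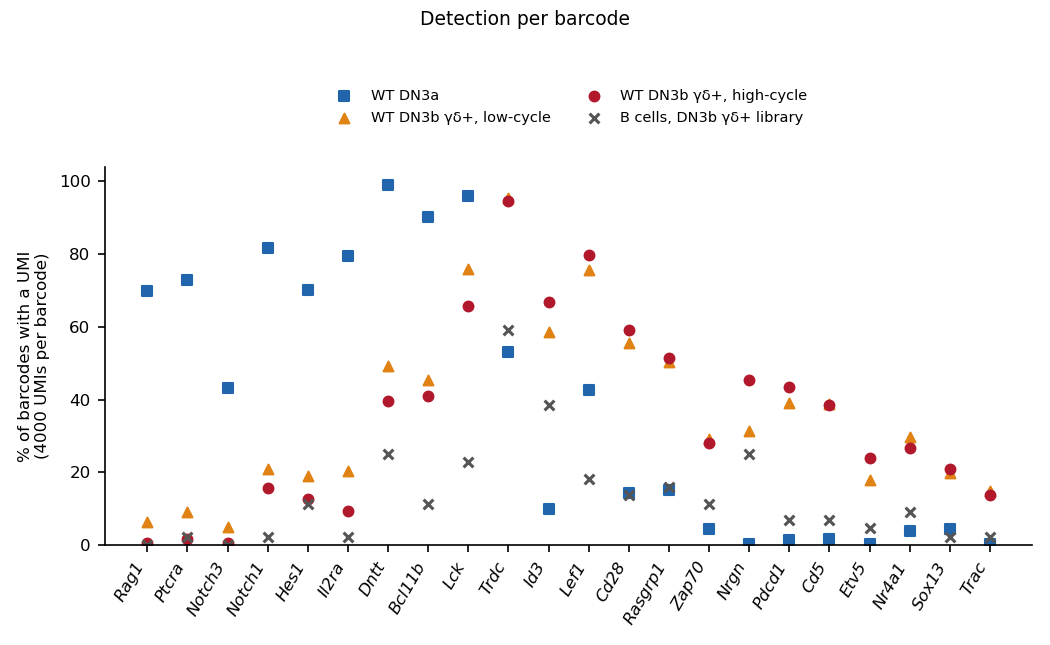
Percentage of barcodes with a UMI of each gene (y axis), each barcode thinned to 4000 UMIs, in WT DN3a, in low-cycle and high-cycle WT DN3b γδ+ and in the B cells of the DN3b γδ+ library. *Rag1*, *Ptcra* and *Notch3* were detected in 43.3% or more of DN3a barcodes and under 10% of either DN3b γδ+ class, and *Nrgn*, *Pdcd1*, *Cd5* and *Etv5* the reverse, in under 2% of DN3a barcodes and in 17.9% or more of either DN3b γδ+ class.

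A few barcodes of the DN3b γδ+ library held transcripts that were high in DN3a. With sets chosen after their values were seen, and so without a test, 114 of 10806 thinned DN3b γδ+ barcodes (1.055%, interval 0.871 to 1.27) held at least 3 UMIs of *Rag1*, *Rag2*, *Ptcra* and *Notch3* together, against 4254 of 6109 DN3a barcodes (69.6%). At least 3 UMIs of *Cd5*, *Nrgn*, *Pdcd1* and *Etv5* were held by 4505 DN3b γδ+ barcodes (41.7%) and 8 DN3a barcodes. Only 2 DN3b γδ+ barcodes and 1 DN3a barcode held at least 3 UMIs of each set. Of the 114 barcodes 94 were low-cycle, and their median depth was 6539.5 UMIs, below the 16066 UMIs of the 4505. *Trdc* was detected in 70.2% of the 114 and in 96.9% of the 4505, against 47.3% of the 4254 DN3a barcodes, and *Dntt* in 97.4%, 28.7% and 99.3%. Whether the 114 are DN3b γδ+ cells or DN3a cells that entered the gate was not tested.

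Set beside the other wild-type libraries, sorted as β-selected (γδ−) or later γδ+ (DN4) cells, the levels of the named genes came from 1 library each. Beside its 456 CPM in DN3a, *Rag1* reached 36.1 and 70.0 CPM in the DN3b and DN4 libraries of γδ− cells, and 3.28 and 0.980 CPM in those of γδ+ cells. *Dntt* went from 1528 CPM in DN3a to 797 and 699 in the γδ− libraries and 189 and 177 in the γδ+ libraries. *Notch1* followed the same order, with 454, 124, 117, 45.1 and 40.2 CPM. DN3a thus held the highest level of each, and both γδ+ libraries the lowest.

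*Nrgn* stood at 4.06 and 5.6 CPM in DN3b γδ− and DN4 γδ−, and at 266 CPM in DN4 γδ+. *Cd5* stood at 10.9, 9.19 and 81.8 CPM in the same libraries, and *Id3* at 91.7, 121 and 477 CPM. *Mki67* differed from these, with 366 and 341 CPM in the γδ− libraries against 333 CPM in DN3b γδ+ and 173 CPM in DN4 γδ+. *Ldha* stood at 856 and 694 CPM in the γδ− libraries and 383 CPM in DN4 γδ+. *Mki67* and *Ldha* were thus higher in all 4 of these libraries than in DN3a, whereas *Nrgn*, *Cd5* and *Id3* were highest in the 2 γδ+ libraries. In the Lat-/- DN3 γδ− and DN3 γδint libraries, whose cells lack the adaptor LAT, *Rag1* stood at 466 and 553 CPM, *Nrgn* at 1.02 and 1.54 CPM, *Cd5* at 1.89 and 1.73 CPM, *Id3* at 16.8 and 44.8 CPM and *Mki67* at 47.3 and 223 CPM. *Rag1*, *Nrgn*, *Cd5* and *Id3* in both thus lay nearer to DN3a than to DN3b γδ+, while *Mki67* in both lay between DN3a and DN3b γδ+. The median ribosomal share of UMIs was 25.1% in Lat-/- DN3 γδ− and 15.85% in DN3 γδint, against 30.4% in DN3a and 26.3% in DN3b γδ+. CPM do not correct for this.

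**Figure D5:**
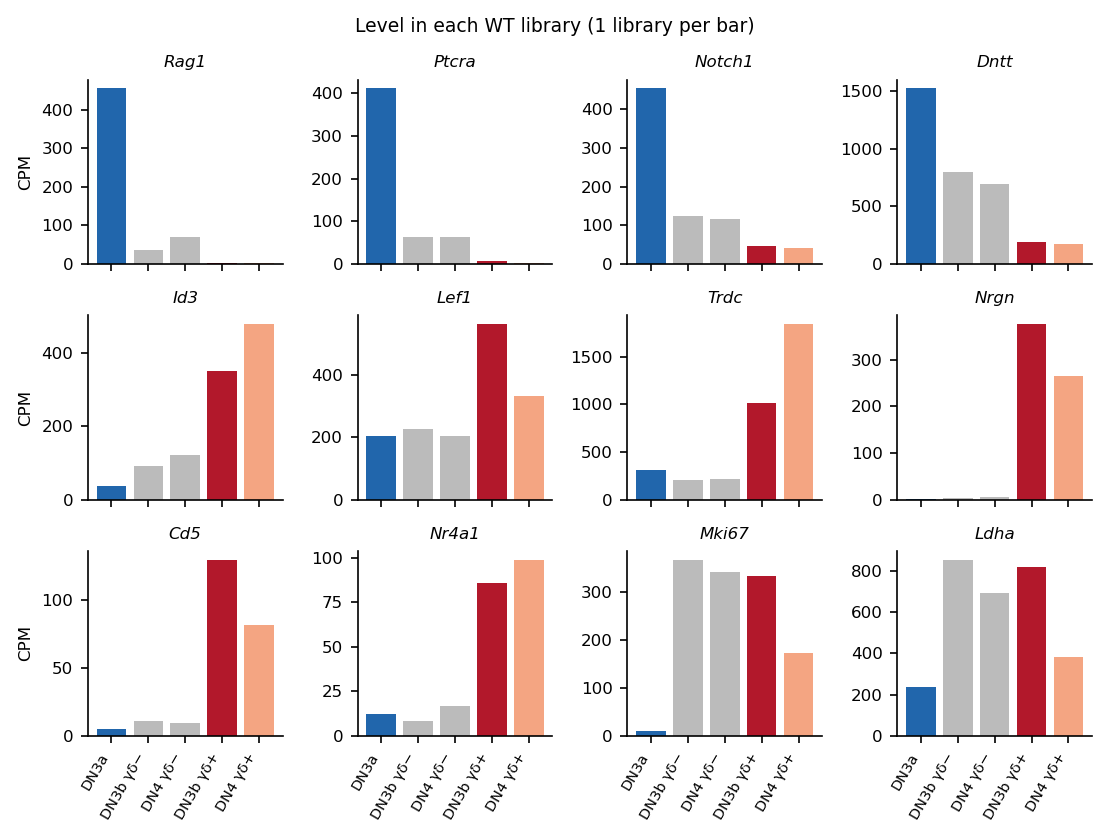
CPM (y axes, from 0) of 12 genes in the 5 WT libraries, 1 library per bar and so without an error bar. *Rag1*, *Ptcra*, *Notch1* and *Dntt* are highest in DN3a, *Id3*, *Trdc*, *Nrgn*, *Cd5* and *Nr4a1* are highest in the 2 γδ+ libraries, and *Mki67* and *Ldha* are high in DN3b of either kind and in DN4 γδ−.

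Markers of other cell types were mostly below the minimum, and some of those above it differed between the libraries. Of 10 B cell markers, 3 of which the rule used, 3 passed the minimum, *Cd79b* at 14.2 CPM in DN3b γδ+ and 40.8 CPM in DN3a, *Cd74* at 5.30 and 11.6 CPM and *Ighm* at 77.4 and 82.4 CPM. Of 7 myeloid markers 2 passed the minimum, *Cst3* at 117 CPM in DN3b γδ+ and 128 CPM in DN3a and *Lyz2* at 0.653 and 19.4 CPM, while *Csf1r* and *Itgam* stood at 0.216 CPM or less. Of 5 plasmacytoid markers *Siglech* had 1 UMI in all and *Klk1* none, while *Ly6d* (278 and 2370.5 CPM) and *Bst2* (120 and 550.2 CPM) were lower in DN3b γδ+. Of 5 NK cell markers only *Nkg7* passed the minimum, at 318 and 148 CPM, and *Ncr1* had no UMI in either library. The highest globin gene, *Hbb-bs*, stood at 1.002 and 0.0983 CPM (log2 ratio -2.67 with free RNA subtracted). Of 6 markers of double-positive thymocytes 2 passed the minimum, *Trac*, given above, and *Arpp21* at 82.3 and 729 CPM, with *Cd4* at 0.113 and 0.295 CPM. Of the 10 T cell markers, which mark both populations, 1 was at least 2-fold higher (*Cd2*) and 5 at least 2-fold lower, against 10.6% and 15.1% of all genes. Relative to the B cells 2 of the 10 were at least 2-fold higher and 1, *Bcl11b*, at least 2-fold lower, against 52.2% and 3.74%. The part of such cells in the differences above was not tested.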

How the data were processed

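Libraries were made with the 10x Genomics 3′ v3 chemistry, 1 per sorted population. The authors aligned and counted the reads with Cell Ranger (5.0.1 in the submitters' notes, 4.0.0 in the file headers) against mm10 with an added Trdc-GFP reporter, and deposited whole-number UMI counts for 32286 features per barcode. Nothing in the deposited counts was normalized, and 0 columns of samples from outside the series were present.

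UMIs were summed per gene and library over the kept barcodes with pandas 2.3.3, scipy 1.17.1 and numpy 2.4.6 (Python 3.11.15) and divided by the library total to give CPM. With 1 library a side no statistical test was run, the difference has no replicate check, and genes past 2-fold with at least 10 CPM in 1 library were counted. Intervals of ratios are exact conditional binomial and those of shares Clopper-Pearson, at 95%, and the calculation was tested on simulated data. Gene lists, the ranking and the comparison itself were chosen with earlier results of these data known. Genes were named if on a list, or among the 15 highest or lowest by log2 ratio, over all or low-cycle barcodes (at or under the cycle limit), with at least 50 CPM in 1 library, at least 10 UMIs in each, not mitochondrial, ribosomal or immunoglobulin genes, and not higher in B cells. *Hbb-bs* and other markers are list members, whereas *Xist* and *Ddx3y* were chosen after their values were seen. B cells were barcodes with at least 10 UMIs of the B cell markers other than *Cd74* and at most 3 of the CD3 genes. Doublets were scored with scrublet (scanpy 1.11.5), given an expected share of 8%. It marked 933 DN3b γδ+ barcodes (8.00%, the same as that setting) and 1 DN3a barcode. The call did not work in DN3a, was not relied on in either library, and no barcode was removed. As alternatives the study's own limits (200 genes, 15% mitochondrial), other B cell limits (0 or 3 UMIs), a CD3 UMI, removal of the 8% highest doublet scores, TMM scaling (edgeR 4.0.16 in R 4.3.3), scaling to the B cells, the mean over barcodes, subtraction of free RNA, low-value limits of 1 and 50 CPM and another thinning depth (2000 UMIs) were tried. Some listed genes are not reported here.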

Additional observations from a re-analysis of the deposited data

How the results depend on the processing

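The counts of genes past 2-fold were within 1.5 times the main counts under the study's own barcode limits, the other B cell limits, the CD3 limit, removal of high doublet scores, the mean over barcodes and, for higher genes, free-RNA subtraction, and among low-cycle barcodes. They moved further with the scaling. TMM gave 1346 higher genes, and the B cell scale 4137 higher and 296 lower. Free-RNA subtraction gave 671 higher and 1808 lower genes (27.1% higher); its share was taken from the marker with the lowest ratio in each library, *Cd3e* with 14.6% in DN3b γδ+ and *Cd247* with 0% in DN3a, so that 1 side only was lowered, although all 10 markers together gave 22.9% and 6.66%. Limits of 1 and 50 CPM tested other numbers of genes (11591 and 3171) and gave 1326 and 441 higher and 2431 and 398 lower genes. The share of high-cycle DN3b γδ+ barcodes was 85.762% with the study's limits, 82.8% and 86.8% with 0 and 3 B cell UMIs, 85.757% with a CD3 UMI, 83.5% without high doublet scores, 83.3% at 2000 UMIs and 87.5% without thinning.

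Of the named genes 170 were past 2-fold. All 170 kept their direction with TMM, but 154 stayed past 2-fold, and 155 stayed so with free RNA subtracted. Among low-cycle barcodes 144 of 168 stayed past 2-fold. Relative to the B cells 123 stayed past 2-fold and 167 kept their direction, while *Clec2d* came to 0.0072, *Mvd* to 0.073 and *Foxp1* to 0.083. Among low-cycle barcodes *E2f2* came to -0.495, and the cause was not tested. Free-RNA subtraction turned 8 genes, to log2 ratios of -12.04 for *Cd52*, -8.91 for *Mef2c*, -8.64 for *Klf2*, -7.22 for *Ikzf3*, -4.60 for *Btla*, -3.52 for *Bcl2a1b*, -2.67 for *Hbb-bs* and -1.94 for *Tbx21*. The B cells of the DN3b γδ+ library hold all 8 at higher CPM than its thymocytes. The subtraction left the 8 at or near the floor of 3 counts in that library, so these ratios are no measured levels. No replicate could be left out and no paired analysis was possible because there was 1 library per group. Depth limits the genes below 10 CPM, for which 1 UMI was worth 0.0197 CPM in DN3a.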
